A study of Mus musculus with 14 samples.

Results

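Binding of the transcription factor GATA2 was set beside elongating RNA polymerase II (S2P, polymerase phosphorylated at serine 2 of its C-terminal repeat) at the genes of wild-type mouse G1ER erythroblasts. The genes were all protein-coding genes of 2 kb or more in the RefSeq annotation, 19304 of 21887. Each was described by the part of its body under S2P peaks, called its coverage, and by the number and place of GATA2 peak summits in the gene or within 5 kb of it. The wild-type lists held 68199 GATA2 peaks and 163620 S2P peaks, and the S2P peaks spanned 115 Mb. Genes with GATA2 summits were more often under S2P than genes without, at every gene length below 100 kb and, with 5 or more summits, above it. In genes more than 25% under S2P, the share of GATA2 summits under S2P was within 2 percentage points of the share of all bases. For another set, summits in genes of 10 kb or more with 10% to 90% coverage, bases at the summit itself were measured. Of these bases 39.0% were under S2P, against 34.6% at points at a like place in the same gene.

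GATA2 is a zinc-finger factor of blood stem cells, early erythroid cells, megakaryocytes and mast cells, and it binds sites with the core letters GATA. In the erythroid lineage it is replaced at many of these sites by GATA1 as cells mature. Serine 2 of the polymerase tail is phosphorylated after polymerase has left the promoter region, chiefly by CDK9 and CDK12, so the mark lies over gene bodies and is densest near their 3′ ends. Gene-body coverage by S2P therefore reads productive elongation, whereas a GATA2 summit reads occupancy of a site, at a promoter or at an enhancer within or beside the gene.

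G1ER cells are a mouse erythroblast line without endogenous GATA1 that carries GATA1 fused to an estradiol-dependent receptor domain. The samples used were 1 wild-type GATA2 library and 2 wild-type S2P replicates, out of 14 samples in the series, which also holds RUNX1 libraries, inputs and a CHD7 knockout line. The S2P list is labelled for both replicates, and how they were combined is not given in the sources used here. Estradiol is named in the labels for a differentiation assay, and whether the cells used for chromatin had received it is not stated. With 1 list per target no test between samples could be made, so shares are given with exact (Clopper-Pearson) 95% intervals that cover counting error over genes or summits only. Genes share chromosomal neighbourhoods and are not replicates.

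The lists carried erythroblast genes, as the label says. All 8 erythroid marker genes had GATA2 summits, against 61.7% of all genes, and 7 of them had S2P, against 50.3%, from 18.5% of Alas2 to 99.2% of Tfrc, whereas Slc4a1 was at 0. No fibroblast marker of 4 had a GATA2 summit or S2P, and the 4 lymphoid markers were all at 0 coverage, though 3 of them had GATA2 summits, up to 4 at Rag1. Of 5 mast cell markers, all had GATA2 summits, 2 had S2P (Cpa3 at 54.5% and Il1rl1 at 33.2%), and Ms4a2, Fcer1a and Hdc were at 0. All 3 megakaryocyte markers had summits and Itga2b had S2P (30.6%), and of 3 myeloid markers Csf1r had (11.6%). Mast and erythroid cells both use GATA2, and the part of other cell types in these lists was not tested. The median summit was supported by 23 fragments in the GATA2 list (range 7 to 286) and by 34 in the S2P list (16 to 298), recovered from the deposited fold and p. The highest numbers equal 2 times the shortest peak width of each list (143 and 149 bp), so the order among the strongest summits is not resolved.

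Promoters with a GATA2 summit are printed here as examples of bound genes with and without S2P. The following 250 bases end at the base before a RefSeq start site (GRCm38.p6) and are written 5′ to 3′ on the strand of the gene. Capitals mark the letters GATAA or their reverse complement TTATC. Slfn14 and Cstad are those, among the 6 genes at 0 coverage with the strongest start summits, whose summit lay in a window of the RefSeq promoter table. For Gp9, another of the 6, that table gives a start inside the gene and not the one beside its summit. The other 5 were chosen after their values were seen, as erythroid genes with S2P and mast cell genes with and without it. Erythroid genes with a promoter summit and low coverage are not printed, such as Trim10 (263 fragments, 13.2%) and Epb42 (210 fragments, 18.0%).
Klf1 (chr8:84901732-84901981, plus strand): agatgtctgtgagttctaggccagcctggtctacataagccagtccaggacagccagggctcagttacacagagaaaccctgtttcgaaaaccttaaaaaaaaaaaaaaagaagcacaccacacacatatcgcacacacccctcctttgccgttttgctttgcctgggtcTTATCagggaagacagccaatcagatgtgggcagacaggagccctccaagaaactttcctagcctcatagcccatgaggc
Epor (chr9:21963577-21963826, minus strand): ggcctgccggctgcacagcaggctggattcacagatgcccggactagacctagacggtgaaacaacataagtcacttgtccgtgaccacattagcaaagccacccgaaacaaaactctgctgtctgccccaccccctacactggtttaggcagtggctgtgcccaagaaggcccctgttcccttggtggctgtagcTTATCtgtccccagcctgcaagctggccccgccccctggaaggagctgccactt
Cpox (chr16:58669958-58670207, plus strand): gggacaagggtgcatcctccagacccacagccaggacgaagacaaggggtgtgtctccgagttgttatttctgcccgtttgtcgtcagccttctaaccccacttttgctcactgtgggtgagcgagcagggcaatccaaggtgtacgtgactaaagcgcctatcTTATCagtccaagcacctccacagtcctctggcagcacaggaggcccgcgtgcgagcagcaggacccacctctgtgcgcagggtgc
Cpa3 (chr3:20242182-20242431, minus strand): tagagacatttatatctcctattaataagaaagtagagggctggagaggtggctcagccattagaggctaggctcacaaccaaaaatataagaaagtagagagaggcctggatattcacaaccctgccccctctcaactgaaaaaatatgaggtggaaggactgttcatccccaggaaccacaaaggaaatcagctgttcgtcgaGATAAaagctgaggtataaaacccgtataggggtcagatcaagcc
Ms4a2 (chr19:11623720-11623969, minus strand): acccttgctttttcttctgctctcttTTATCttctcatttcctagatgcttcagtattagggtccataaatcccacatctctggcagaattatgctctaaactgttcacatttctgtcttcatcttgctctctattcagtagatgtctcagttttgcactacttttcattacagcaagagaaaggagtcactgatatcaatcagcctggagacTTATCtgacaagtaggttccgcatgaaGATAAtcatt
Slfn14 (chr11:83286727-83286976, minus strand): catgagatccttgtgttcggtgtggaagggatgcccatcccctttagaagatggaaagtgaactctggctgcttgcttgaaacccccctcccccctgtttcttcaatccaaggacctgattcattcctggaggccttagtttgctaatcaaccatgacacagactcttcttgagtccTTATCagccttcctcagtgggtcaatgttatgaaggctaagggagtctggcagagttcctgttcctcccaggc
Cstad (chr2:30594794-30595043, plus strand): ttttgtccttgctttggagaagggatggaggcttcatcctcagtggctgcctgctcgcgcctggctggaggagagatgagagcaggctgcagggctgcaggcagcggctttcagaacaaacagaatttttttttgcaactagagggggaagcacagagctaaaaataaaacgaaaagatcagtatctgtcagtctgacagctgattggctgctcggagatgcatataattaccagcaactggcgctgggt

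Klf1 encodes a red cell transcription factor, and its promoter summit held 104 fragments (exact Poisson interval 85.0 to 126) with 1 match, 6 bp away. The gene was 75.2% under S2P. Epor, the erythropoietin receptor, had 70 fragments with a match 3 bp from the summit and was 63.2% covered. At Cpox, which encodes an enzyme of heme synthesis, the summit held 283 fragments and coverage was 91.5%. Cpa3, a mast cell carboxypeptidase, had 158 fragments, a match 14 bp from the summit and 54.5% coverage. Ms4a2, the beta chain of the mast cell IgE receptor, had 3 matches and 121 fragments (100 to 145), and no base under S2P. Slfn14 had 273 fragments, 1 match and no S2P. Cstad had 184 fragments (158 to 213), no match in these letters and no S2P. Of these 7 promoters, 6 held GATAA or TTATC, and the choice of genes sets that number. The Cstad sequence does hold TATC, the reverse complement of the shorter core GATA.

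Over all 19080 promoter windows, taken from 250 bases before to 50 after the start, 20.2% held GATAA on either strand. The share was 59.8% (55.6 to 63.8) of the 579 windows with a GATA2 summit and 18.9% of those without. Among windows with a summit the intervals for genes with and without S2P overlapped: 63.5% (56.0 to 70.6) for covered genes, 57.4% (51.2 to 63.3) for partly covered genes and 59.7% (50.7 to 68.2) for genes at 0. Among windows without a summit it was lower for covered genes, 12.3%, than for genes at 0, 24.2%. The median GC content of these windows also differed, 61.7% against 53.7%, and its part in the motif shares was not tested.

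S2P covered at least 50% of the body of 3225 genes, 16.7% of all, which are called covered genes here. A further 6478 were partly covered, so that 50.3% had any S2P, and 9601 were at 0. GATA2 had a summit in or within 5 kb of 11918 genes, 61.7% of all. Covered genes had a summit in 82.8% of cases, partly covered genes in 82.9% and genes at 0 in 40.4%. These shares mix gene lengths. Among genes with any S2P, those with a summit were covered in 32.9% (31.1 to 34.8) of cases at 20 to 50 kb and those without in 13.7% (10.1 to 18.1). At 50 to 100 kb the shares were 20.7% and 1.61%, and at 2 to 5 kb 59.7% (55.5 to 63.7) and 54.0% (48.6 to 59.4), which overlap. Exceptions were common on both sides: 556 covered genes had no summit, and 3876 genes at 0 had at least 1.

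By number of summits, 7.53% (6.94 to 8.15) of the 7386 genes without a summit were covered. The share was 18.3% (17.0 to 19.5) with 1 summit, 23.3% (21.6 to 24.98) with 2, 26.1% (24.5 to 27.9) with 3 to 4 and 26.6% (24.8 to 28.5) with 5 to 9. It was lower again, 16.7% (14.5 to 19.1), with 10 or more. That last class was made of long genes, with a median length of 118 kb against 13.0 kb for genes without a summit, and long genes were seldom covered at all. Weighted to the length make-up of all genes, the shares were 5.90%, 16.3%, 22.0%, 28.1% and 34.2% from 0 to 5 to 9 summits, without the plateau. All genes with a summit together reached 24.3%, 18.4 percentage points above those without. That difference was 28.1 points when 25% counted as covered and 9.34 when 75% did. The class of 10 or more holds no gene under 5 kb and has no such weighted value.

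**Figure D1:**
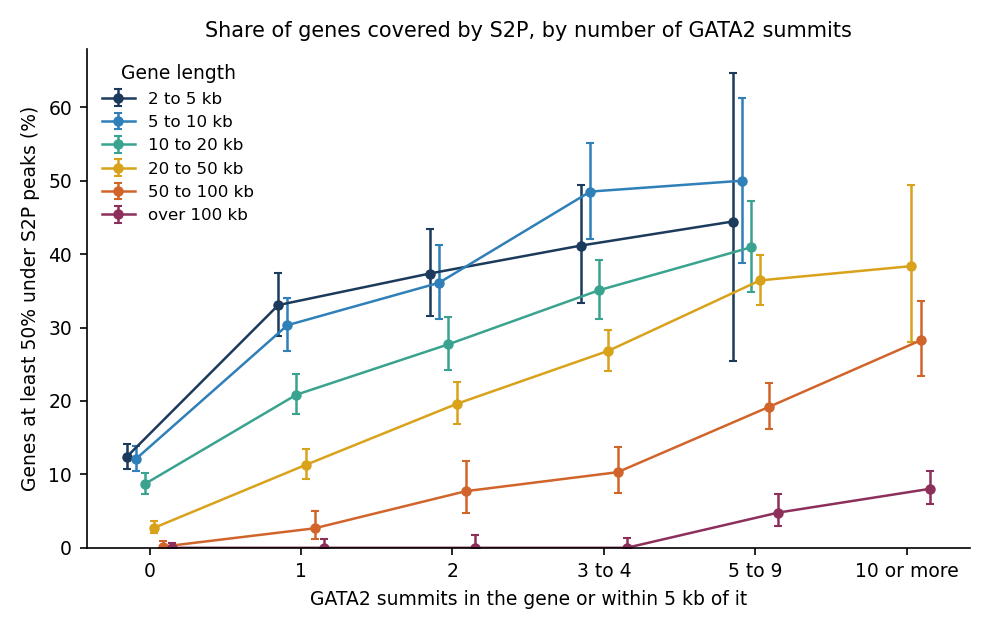
Share of protein-coding genes with at least 50% of their body under S2P peaks (y axis, percent) by the number of GATA2 summits in the gene or within 5 kb (x axis), 1 line per gene length class, with exact 95% intervals over genes. In the class of 20 to 50 kb the share goes from 2.72% without a summit to 38.4% with 10 or more, and above 100 kb it is 0 up to 4 summits.

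Within a length class the share was higher with each larger number of summits (the plot of shares by summit number). Genes of 2 to 5 kb were covered in 12.4% of cases without a summit, 33.1% with 1 and 44.4% (25.5 to 64.7) with 5 to 9. For genes of 5 to 10 kb the share went from 12.1% to 50.0% over the same classes, and for genes of 10 to 20 kb from 8.71% to 40.9%. At 20 to 50 kb, the largest class, the values were 2.72%, 11.3%, 19.6%, 26.8%, 36.4% and 38.4% (28.1 to 49.5). At 50 to 100 kb 0.168% of genes without a summit were covered, 1 of 594, against 28.3% (23.4 to 33.6) with 10 or more. Above 100 kb no gene with fewer than 5 summits was covered, and 4.80% with 5 to 9 and 8.03% with 10 or more were. Neighbouring number classes often overlapped in their intervals, for example in genes of 2 to 5 kb with 3 summits or more.

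A summit between neighbouring genes is counted for both. Other protein-coding genes of 2 kb or more lay within 5 kb of 9903 genes. Spearman's rho between summit number and coverage, across genes and as a description only, was 0.42 over all 19304 genes and 0.37 to 0.64 within length classes. Among the 9703 genes with any S2P it was −0.09 over all lengths, and within classes it went from 0.05 at 2 to 5 kb to 0.33 above 100 kb. In short genes summit number thus moved mainly with having any S2P, and in long genes also with how much. The median fold enrichment of the S2P peaks in a gene, from the deposited fold, was 4.65 in genes without a summit and 3.59 in the mostly long genes with 10 or more. Within length classes it did not go 1 way: from no summit to 5 to 9 it went from 4.54 to 5.02 at 10 to 20 kb and from 4.16 to 4.37 at 20 to 50 kb, but from 4.01 to 3.77 at 50 to 100 kb.

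The difference did not come from a few chromosomes. On the 19 autosomes and X, 13.9% to 26.7% of genes with a summit were covered, against 2.40% to 11.6% of genes without. The difference was 10.5 to 19.96 percentage points, and it was positive on 20 of 20. X had the lowest share in both classes, 13.9% and 2.40%. On Y only 2 genes had a summit and neither was covered.

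Position was read for the 15328 genes with a known strand. A summit within 1 kb of the start went with coverage in 31.6% (29.7 to 33.6) of 2229 genes. Genes with summits in the body but not at the start were covered in 19.3% (18.2 to 20.3) of 5815 cases, and genes without a summit in 7.98%. Weighted for length the contrast between start and body shrank to 30.8% against 25.7%, a difference of 5.15 percentage points, beside 6.23% without a summit. It was 2.62 points when 75% counted as covered and 8.11 in the knockout lists. Genes with summits in the upstream flank only reached 17.6% by the same weighting and those with the downstream flank only 15.4%. Both flanks without the body gave 35.4% (29.2 to 42.1) of 223 genes, unweighted, with a median length of 8562 bp.

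Genes with exactly 1 summit separate place from number. Weighted for length, 20.9% were covered where that summit lay within 1 kb of the start and 22.0% where it lay in the body on the 5′ side of the midpoint. The share was 14.8% on the 3′ side, 16.8% at 1 to 5 kb upstream and 14.9% downstream. These weighted shares have no interval, and some rest on few long genes. At 50 to 100 kb, for example, 20 genes had the summit upstream and 26 downstream. The order of the places was not tested. The strength of the single summit also moved with coverage. In 4 classes of equal size by −log10 q, with medians of 12, 16, 24 and 56 fragments, 13.2% (11.04 to 15.5), 16.8%, 19.5% and 23.6% (20.9 to 26.5) of genes were covered, or 13.6%, 15.4%, 16.6% and 19.2% weighted for length. The weakest class was still above the 7.53% of genes without a summit.

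**Figure D2:**
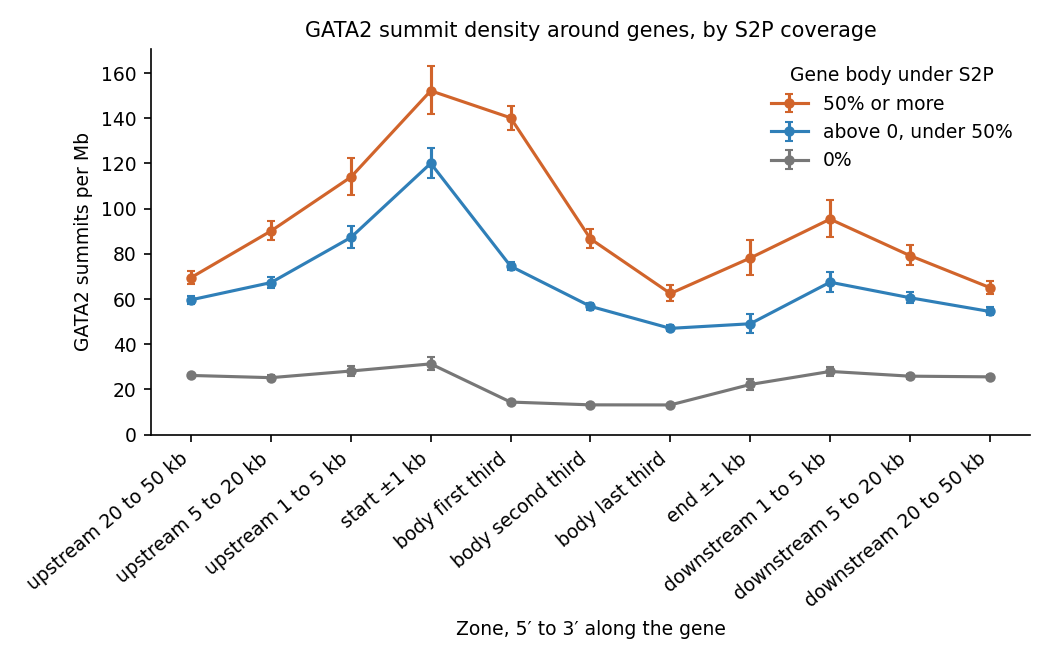
GATA2 summits per Mb (y axis) in 11 zones along genes from 50 kb upstream to 50 kb downstream (x axis), for genes at least 50% under S2P, partly under S2P and at 0, with exact Poisson 95% intervals. Covered genes have 152 summits per Mb around the start and 62.5 in the 3′ part of the body, and genes at 0 have 31.3 around the start. Flank zones leave out bases inside genes.

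Around covered genes GATA2 summits were densest at the 5′ end. The density was 152 per Mb within 1 kb of the start and 140 in the 5′ part of the body, when the body is cut into 3 equal parts. It was 86.6 in the middle part and 62.5 in the 3′ part. Flank zones leave out bases inside genes of 2 kb or more. Upstream of the gene the density was 114 per Mb at 1 to 5 kb, 90.1 at 5 to 20 kb and 69.5 at 20 to 50 kb. At the same distances downstream it was 95.4, 79.2 and 65.1. Partly covered genes had lower values, also highest at the start, with 120 there, 74.5 in the 5′ part and 47.0 in the 3′ part. Unlike in covered genes, their 5′ part lay below the 1 to 5 kb upstream zone, which had 87.2. Genes at 0 had 31.3 at the start and 14.4, 13.2 and 13.1 in the body, less than in their own flanks (25.2 to 28.2 upstream). Covered genes and genes at 0 thus differed about as widely in the 5′ part of the body, 140 against 14.4, as anywhere measured. Gene length was not weighted for here. Over all genes the median length was 19371 bp at 0 coverage, 18197 bp at 50% to 75% and 11245.5 bp at 75% to 100%. At 20 to 50 kb upstream the densities were 69.5 and 26.2.

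S2P was densest toward the other end. In the 1195 genes of 20 to 50 kb without a summit, 2.62% of the bases in the first of 20 equal bins were under S2P and 10.8% in the last. With 5 to 9 summits the same bins gave 22.0% and 57.8%, and with 10 or more 17.6% and 60.8%. In every number class the highest value lay past the annotated end, at 0.5 to 1 kb, with 13.4% without a summit, 38.8% with 1, 51.9% with 2, 62.7% with 3 to 4, 70.4% with 5 to 9 and 72.4% with 10 or more. The GATA2 densities above are over covered genes of all lengths, whereas this profile is over genes of 20 to 50 kb, covered or not.

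**Figure D3:**
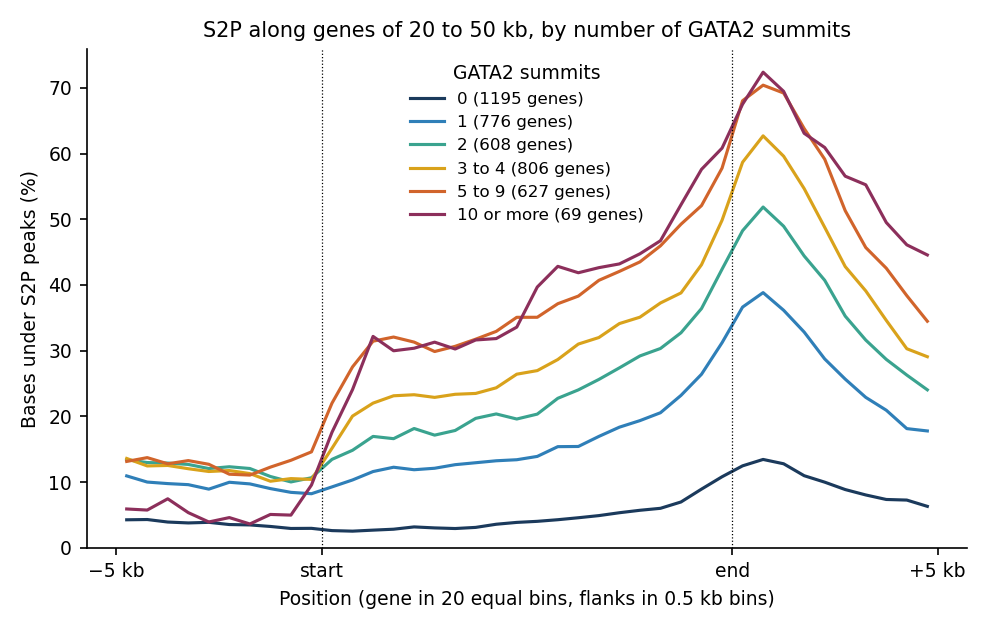
Percent of bases under S2P peaks (y axis) along genes of 20 to 50 kb, from 5 kb before the start to 5 kb past the end (x axis; the body in 20 equal bins), 1 line per number of GATA2 summits. Every line climbs toward the end, and the highest values, 13.4% to 72.4%, lie 0.5 to 1 kb past it.

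Summits in genes lay under S2P peaks in 8547 of 37926 cases, 22.5% (22.1 to 23.0), where 9.22% of gene bases were under S2P. More than 5 kb from genes of 2 kb or more, 502 of 23230 summits were under S2P, 2.16% (1.98 to 2.36), against 0.303% of bases there. Leaving out summits near shorter protein-coding genes too, the share was 1.995% (1.82 to 2.18). Split by the coverage of the gene, most of the excess inside genes disappeared. In genes covered by 25% to 50%, 34.5% of summits and 36.1% of bases were under S2P, and at 50% to 75% the values were 62.0% and 61.7%. At 75% to 100% they were 88.1% (87.0 to 89.2) and 86.8%. Only below 25% was the share of summits clearly larger, 8.17% (7.77 to 8.59) against 5.86% of bases. The density of summits per Mb of gene went from 14.1 at 0 coverage to 52.7, 83.7, 90.8 and 108 in the 4 classes above. These densities were not weighted for gene length.

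**Figure D4:**
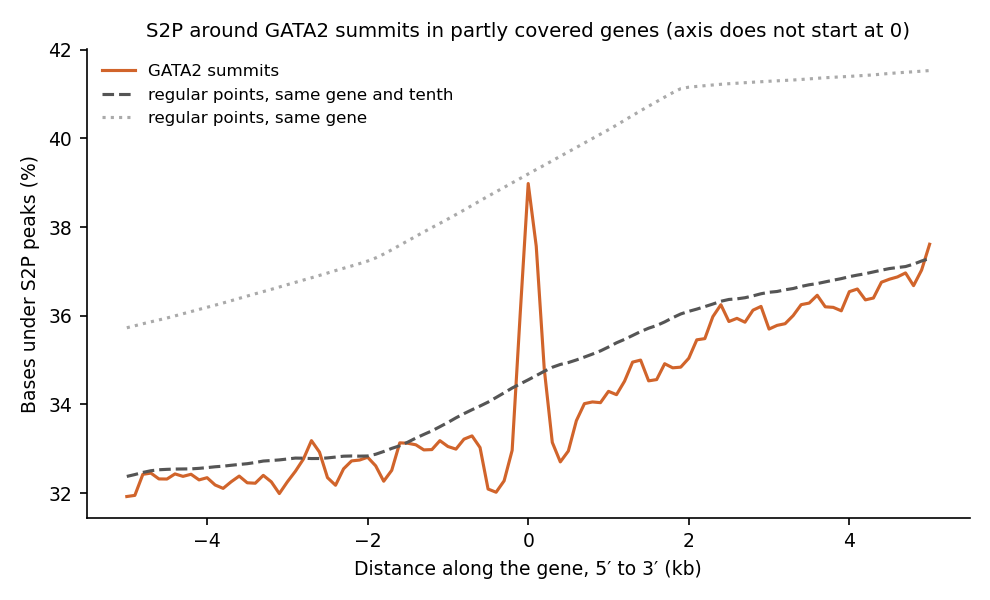
Percent of bases under S2P peaks (y axis, not starting at 0) by distance along the gene (x axis, kb) from 12226 GATA2 summits. These lay in 2733 genes of 10 kb or more with 10% to 90% coverage. Dashed: points every 100 bp in the same gene and the same 1 of its 10 equal parts, weighted as the summits. Dotted: points over the whole gene. The summits reach 39.0% at their centre and 32.9% at 500 to 1000 bp before it.

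At finer scale S2P had a narrow maximum at the summit itself. It was measured at 12226 summits in 2733 genes of 10 kb or more with 10% to 90% coverage, leaving out the outer 2 kb of each gene. The 100 bp at the summit were under S2P in 39.0%, against 34.6% of regular points placed in the same gene and the same 1 of its 10 equal parts. At 500 to 1000 bp the summits were slightly below those points, 32.9% against 33.8% before and 33.8% against 35.1% after, and at 2 to 5 kb the values were 32.4% and 32.7% before and 36.3% and 36.7% after. In steps of 100 bp, the difference from the regular points was 1.57 percentage points at −100 bp, 4.43 at the summit and 2.92 at 100 bp. It was −1.41 at −200 bp and 0.05 at 200 bp. At 300 to 500 bp on either side it was −1.69 to −2.20. Points spread over the whole gene gave 39.2%. S2P was denser toward the 3′ end, where fewer summits lay.

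Stronger summits were somewhat more often under S2P. Over 10 classes by −log10 q the share in genes went from 20.3% in the weakest to 27.2% in the strongest. Summits more than 5 kb from genes were under S2P in 1.63% of cases in the weakest class and 2.70% in the strongest, with a highest value of 3.94% in the ninth class. Where a RUNX1 peak lay on the GATA2 summit the share was 25.4% (24.4 to 26.3) in genes and 3.44% (2.93 to 4.02) away from them, against 21.7% (21.3 to 22.2) and 1.86% (1.67 to 2.06) elsewhere. Such shared summits were stronger, with a median of 93 fragments in genes against 20. Within the 10 strength classes the share in genes was higher with RUNX1 in 6 and lower in 4. In the weakest class it was 31.6% (23.2 to 40.9) of 114 summits against 19.9% (18.6 to 21.3), and in the strongest 27.4% (26.0 to 28.9) against 25% (20.7 to 29.7).

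RUNX1, a factor of blood development that often binds beside GATA2, had 28952 peaks in the wild type. Of the genes with a summit of neither factor 1.74% (1.42 to 2.104) were covered, and of the 2837 genes with GATA2 only 4.37% (3.65 to 5.19). Genes with RUNX1 only were covered in 30.01% (27.7 to 32.4) of 1513 cases and genes with both in 28.0% (27.1 to 29.0) of 9081. Weighted for length the values were 1.35%, 5.48%, 20.6% and 29.9%. Without RUNX1, genes with a GATA2 summit were thus covered a few percentage points more often, and 2545 of the 2669 covered genes with GATA2 had both factors.

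**Figure D5:**
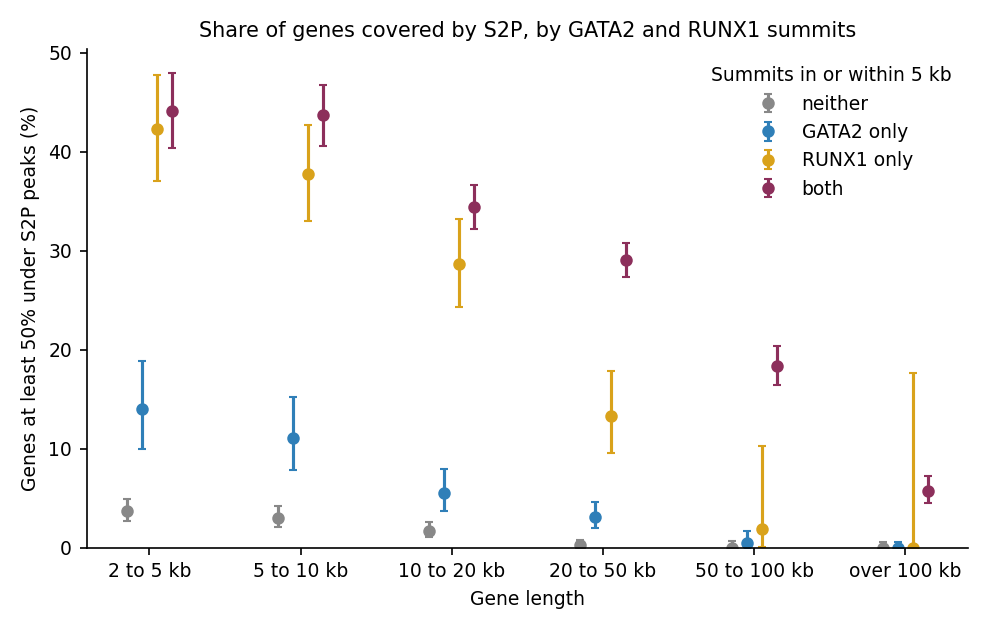
Share of genes at least 50% under S2P (y axis, percent) by gene length (x axis) for genes with summits of neither factor, GATA2 only, RUNX1 only or both in the gene or within 5 kb, with exact 95% intervals. At 20 to 50 kb the shares are 0.318%, 3.16%, 13.3% and 29.1%.

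Among genes with RUNX1, those with GATA2 as well were covered more often at 20 to 50 kb and 50 to 100 kb. Whether this contrast depends on length was not tested. At 2 to 5 kb the shares were 42.4% (37.0 to 47.8) with RUNX1 only and 44.2% (40.4 to 48.0) with both, which overlap. At 10 to 20 kb they were 28.6% (24.3 to 33.3) and 34.4% (32.3 to 36.7), which touch, and at 20 to 50 kb 13.3% (9.61 to 17.8) and 29.1% (27.4 to 30.8), which do not. At 50 to 100 kb they were 1.92% of 52 genes and 18.3% (16.4 to 20.4). By position, genes with a GATA2 summit at the start were covered in 33.5% of cases with RUNX1. Without RUNX1 it was 15.4% (10.9 to 20.7) of 228 cases. For summits in the body but not at the start the shares were 24.8% and 2.86% (2.07 to 3.85). The 1251 genes of known strand with RUNX1 and no GATA2 summit were covered in 30.5% (27.9 to 33.1) of cases, above that 24.8%. Weighted for length they were at 21.1%. With RUNX1, the weighted shares were 33.0% for GATA2 at the start and 31.1% in the body.

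Among erythroid regulators, all 21 genes had a GATA2 summit and 16 were covered, against 16.7% of all genes, with a median coverage of 75.2% beside 0.0532% over all genes. Their median number of summits was 6, beside 1. Lyl1, a close relative of Tal1, was 100% covered with 2 summits, Tfrc, the transferrin receptor, 99.2% with 9, and Gfi1b, a repressor needed for red cells, 99.1% with 9. Tal1 was 98.7% covered with 5 summits, of which the one within 1 kb of its start held 253 fragments. Gata1 was 65.9% covered with 5 summits. Sox6, a repressor of embryonic globin, had 62 summits, the most in the list, and 0.699% coverage. It spans 569905 bp, and its density of 1.07 summits per 10 kb was below the list median of 1.66. Genes over 100 kb with 10 or more summits had a median coverage of 4.66%, and 8.03% of them were covered.

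Of the 14 heme and globin genes of 2 kb or more, 12 had a summit, against 61.7% of all genes, and 5 were covered (35.7%, against 16.7%). Their median coverage was 36.2%. Cpox (91.5%, 7 summits), Fech (91.0%, 11), Glrx5 (83.5%, 5) and Slc25a38 (53.7%, 3) were among the covered members. Alas2, the first enzyme of the erythroid heme pathway, was 18.5% covered with 6 summits and a strongest summit of 249 fragments. Hmox1, which breaks heme down, was lowest at 0.358% and had no summit. Globin genes shorter than 2 kb are outside the measured set.

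All 22 genes of the red cell membrane and surface had GATA2 summits, and 8 were covered (36.4%, against 16.7% of all genes), with a median of 33.3%. Cd47 was highest at 97.6% with 20 summits, the most in the list, and Rhag reached 86.3% with 12. Slc4a1, the anion exchanger band 3, had 3 summits, a strongest one of 210 fragments, and no S2P, and Dmtn had 1 summit and no S2P. Late genes of the red cell thus carried GATA2 with and without S2P. Of 22 stem and progenitor genes, 17 were bound (61.7% of all genes were), 8 were covered (36.4%, against 16.7%) and 9 were at 0. Gata2 itself was 99.3% covered with 8 summits, Runx1 80.6% with 34 and Ikzf1 90.1% with 27. Angpt1, a secreted ligand of the TIE2 receptor, had 36 summits and no S2P, and Erg and Ikzf2 had 34 each with 1.63% and 0.913%. These genes are long, at 252311, 227432 and 156145 bp. Zfp36l2 was 100% covered with 3 summits. Msi2 had the most summits, 40, and 67.7% coverage.

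Mast cell genes were bound in 12 of 14 cases and covered in 2, Il4 (57.7%, 6 summits) and Cpa3 (54.5%, 15 summits), while 7 bound members were at 0. The covered share, 14.3%, was near the 16.7% of all genes, and 61.7% of all genes were bound. Cpa3 was 48.6% covered with S2P peaks of −log10 q 5 or more and 39.8% in the knockout lists, below the 50% limit in both. Of 15 megakaryocyte genes, 11 were bound and 2 covered (13.3%), both near the shares of all genes: Gp1ba at 97.9% with 4 summits and Plek at 58.9% with 8. Itgb3, the platelet integrin beta chain, had 9 summits and no S2P. In the myeloid list 6 of 13 were bound and none was covered, with a highest coverage of 11.6% for Csf1r. In the lymphoid list 9 of 18 were bound and none was covered; over all genes 61.7% were bound and 16.7% covered. Rag2 and Gata3 had 6 summits each, with coverage of 0 and 7.42%, and Tcf7 was highest at 20.3%. The 23 non-blood genes had summits in 8 cases and 1 covered member, Pax6 at 55.4% with 5 summits. Cacna1a had the most summits in that list, 11, and no S2P.

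In lists of genes that dividing cells use, most members were covered with 1 or 2 summits at the median, beside 1 over all genes. Their median densities, 0.814 (cell cycle), 0.718 (ribosomal protein) and 0.684 (elongation) summits per 10 kb, lay above the 0.308 of all genes. Gene length was not weighted for in these densities. Of 28 cell cycle genes 25 were covered, 20 of them with a summit and 5 without, and the median coverage was 87.2% with a median of 2 summits. Cdk1 was highest at 98.4% with 1 summit. Ccnd3, cyclin D3, had the most summits, 26, and 6.38% coverage, and Cdkn2d was at 0 without a summit. Of 28 ribosomal protein genes 27 were covered, 17 with and 10 without a summit, with a median of 100%. Rpl7 had the most summits, 5, and Rpl19 the lowest coverage, 42.2%. Over all genes 16.7% were covered and 61.7% had a summit. A summit was present at 18 of the 28 ribosomal protein genes. These genes are short, with a median of 3879 bp beside 21337 bp over all genes. Among all genes, 943 of 2451 of 2 to 5 kb had a summit and 1337 of 2891 of 5 to 10 kb. Among 24 elongation factors of polymerase II, 19 were bound and 16 covered (66.7%). Hexim1, an inhibitor of CDK9, was highest at 95.5% with 1 summit. Cdk9 was 95.03% covered without a summit. Ell2, an elongation factor, had the most summits, 25, and 71.6% coverage, and Leo1 was lowest at 4.19%.

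Single genes show both ends of the relation. The covered genes with most summits were long: Sipa1l1 (chr12:82169377-82451786) had 47 summits and 92.1% coverage, and Mbnl1 (chr3:60472559-60629750), a splicing regulator, had 45 and 93.1%. Gab2 and St7 had 41 each with 60.7% and 56.4%. Msi2 had 40, Mbp 39 with 70.7%, Cdyl 38 with 52.2% and Arl15 37 with 52.7%. Nearly all of these summits lay within the genes, 46 of 47 at Sipa1l1 and 44 of 45 at Mbnl1, and at most 1 lay at the start in the 6 genes with a known strand. RUNX1 summits numbered 10 to 27 in these 8 genes.

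The genes at 0 coverage with most summits held as many. Nckap5 had 58, Epha6 53, Grm8 49, Immp2l 48, Auts2 45, Cpa6 43, Slc4a10 40 and Luzp2 39. Their lengths went from 280 kb for Slc4a10 to 1106 kb for Auts2, beside 111 kb to 379 kb in the covered set, and their densities were 0.403 to 1.38 summits per 10 kb, against 0.992 to 3.24. Both ranges overlap between the sets. Their strongest summits held 152 to 285 fragments, beside 186 to 284 in the covered set. RUNX1 summits numbered 3 to 15. Many GATA2 summits, with a strong one in each gene, were thus present without a called S2P peak. How many of the summits were strong was not counted. With GATA2 peaks of −log10 q 5 or more, 31 (Luzp2) to 46 (Nckap5) remained.

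Covered genes without any summit within 5 kb were of moderate length. The longest with 80% coverage or more were Phrf1 (34.3 kb, 83.9%), Ythdc1 (32.7 kb, 80.1%), Usp36 (81.7%), Rrp1b (85.2%), Utp14a (82.4%), Ttll3 (83.1%), Ilkap (92.1%) and Ccnk (81.8%). Ythdc1 reads methylated adenosine in RNA, Rrp1b and Utp14a act in ribosome making, and Ccnk is the cyclin of CDK12. All 8 had at least 1 RUNX1 summit, as had 454 of the 556 covered genes without a GATA2 summit. Of all 19304 genes, 1513 had RUNX1 summits without GATA2 and 9081 had both. At 5 of the 8 another gene lay within 5 kb, as it did at 9903 of the 19304 genes.

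Among genes with 4 or more summits, the densest covered ones were Ntn3 (5.14 summits per 10 kb), Cish (4.96), Hes1 (4.82), Irf2bp2 (4.46), Rbm38 (4.38) and Cpa3 (4.10). Cish, a feedback inhibitor of cytokine signalling, had 8 summits, of which 3 lay within 1 kb of its start, and 67.5% coverage. Rbm38, an RNA-binding protein of late red cells, had 10 and 94.8%. The densest genes that were not covered reached higher densities: Ccr1l1 6.41, Ccr2 5.81, Ms4a2 5.47, Ormdl3 5.02, Arl4d 4.88 and Mmp8 4.49. All but Ormdl3, at 10.9%, were at 0. Ccr1l1 and Ccr2 are chemokine receptor genes with 13 and 10 summits, the strongest of 283 and 180 fragments.

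The strongest start summits were read in covered genes and in genes at 0 separately. Each set was chosen for strength, so that both are strong was fixed by the choice. Vamp8 had 272 fragments at the start, Hhex 269, Calr 260, Dennd4a 259, Tal1 253 and Rec8 252, with coverage of 95.3%, 85.7%, 98.7%, 64.3%, 98.7% and 75.3%. At 0 coverage, Slfn14 had 273 fragments, Gp9 258, Slc25a23 258, Ugt1a6a 249, Rbp2 198 and Cstad 184. Gp9 encodes a platelet glycoprotein and its summit lay 93 bp before the gene start. Rec8, Calr, Vamp8 and Dennd4a have another gene within 5 kb, so a start summit there may belong to a neighbour. The same holds for Slc25a23 and Ugt1a6a.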

How the data were processed

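ChIP-seq peak lists of GATA2, RUNX1 and S2P in wild-type G1ER cells were used as deposited, with the knockout lists as an alternative only. Per the submitters' processing notes, Bowtie2 2.2.1, MACS2 2.1.0 and the build GRCm38 (mm10) were used; settings, the treatment of duplicates and the input of each list are not given in the sources used here. The authors deposited a fold enrichment (a ratio), a −log10 p and a −log10 q for each peak, with the summit as an offset from the peak start, and the lists reach down to a q of about 0.05. Read totals are not in these lists, so depth is known only as fragments at summits, recovered from fold and −log10 p (whole for 100% of GATA2 and S2P summits at a tolerance of 0.005).

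From these were computed, with Python 3.11.15, pandas 2.3.3, numpy 2.4.6, scipy 1.17.1 and matplotlib 3.10.9, the share of each RefSeq protein-coding gene of 2 kb or more under joined S2P peaks and its GATA2 summits within 5 kb. Covered means 50% or more. Strand came from the RefSeq promoter table, for 15328 of 19304 genes, and position was read only there. Length-weighted shares use 6 length classes with the make-up of all genes. Counts of summits and bases were tested on simulated intervals against a base-by-base count.

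Genes were named by rank: most summits among covered genes and genes at 0, longest highly covered genes without a summit, densest genes, strongest start summits, and the extremes of each gene list. Other members named in the text were chosen after their values were seen. The gene set, lists and rules were chosen with earlier results of these data known.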

Additional observations from a re-analysis of the deposited data

How the results depend on the processing

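No paired analysis was possible because each target has 1 list per genotype and the S2P replicates are not separate in the lists. Results were recomputed under 15 alternatives: flanks, thresholds, lists, gene sets and windows. The motif shares, densities by zone, profiles and chromosome shares were not recomputed. The 3 main differences and shares kept their direction. Genes with RUNX1 only, above genes with both unweighted, were below them with a 20 kb flank (20.6% against 25.5%), among genes with no neighbour (22.4% against 23.2%) and at 10 kb or more (20.4% against 24.3%). Genes with a summit were covered more often than genes without in 12 of 12 settings, and genes with RUNX1 only more often than with GATA2 only in 11 of 11. The length-weighted difference between genes with and without a summit, 18.4 percentage points, became 17.2 for summits inside the gene only, 28.1 and 9.34 with covered set at 25% and 75%, 16.2 with S2P peaks of −log10 q 5 or more, 23.98 with S2P peaks joined over gaps of 1 kb, 15.7 for genes with no other gene within 5 kb, 16.3 for genes of 10 kb or more and 19.7 in the knockout lists. Start minus body, 5.15 points, became 2.62 with covered set at 75%, 7.63 with a start window of 2 kb and 8.11 in the knockout lists. The share of in-gene summits under S2P, 22.5%, became 23.0% with GATA2 peaks of −log10 q 5 or more, 19.1% with the stricter S2P list, 27.5% with joined S2P peaks, 19.95% for genes with no other gene within 5 kb, 21.8% for genes of 10 kb or more, 24.7% in the knockout lists and 33.6% within 500 bp of an S2P peak. Thresholds shift shares by construction; for the other changes the cause was not tested. Of the other shares, 70 of 113 left the 95% interval of the main value. For summits away from genes that value was 1.995%, with genes under 2 kb counted as genes. The 48 named genes kept their coverage class in 137 of 144 values and the presence of a summit in 224 of 240.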
